A study of Mus musculus with 2 samples.

Results

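Klf2, Klf3, Klf4, Klf5, Klf6 and Klf17, Krüppel-like transcription factors of the early embryo, were compared between a pool of mouse morulae injected against Nat10 and a control pool. The genes were chosen by name, with earlier results of these data known, and all 6 were found among the 12836 genes measured. Per the labels, both groups were ICR embryos at the morula stage, injected with double-stranded RNA. In one group, dsNat10, it was directed at Nat10, and in the control group, dsGFP, at the jellyfish protein GFP, which mice lack. Age and time after injection were not given in the sources used here. Polyadenylated RNA was made into SMART-seq2 libraries, which amplify full-length cDNA by PCR. The protocol gives a figure of 50 morulae, without saying whether it holds for each library. Each group was a single library, so nothing here can be set against the spread between replicates, and no p-value was computed. In a pool of whole embryos, fewer cells of a type and less RNA per cell cannot be told apart.

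Krüppel-like factors carry a set of zinc fingers at the C-terminal end, by which they bind GC-rich DNA and the CACCC box, while their N-terminal parts differ and recruit activators or repressors. In embryonic stem cells Klf2, Klf4 and Klf5 act in part redundantly to maintain naive pluripotency, together with Pou5f1 and Nanog. Klf5 is needed for the mouse embryo to form a blastocyst with a working trophectoderm. Krüppel-like factors often bind the promoters of their own family members.

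The 28303119 reads of the dsNat10 library and 29139232 of the dsGFP library were expressed as CPM, reads per 1000000 reads after TMM scaling. The target of the injected RNA had 37 reads in dsNat10 and 886 in dsGFP, so Nat10 was 23.7-fold lower in the library labelled dsNat10. Nop2, the RNA methyltransferase named in the series title, had 5787 reads against 8365. Of 8 genes that mark the morula and its first lineages, 7 were in the table and above 0 in both libraries, with a summed level of 7598 CPM in dsNat10 and 8027 CPM in dsGFP. Most of this sum was Dppa5a, at 4899 against 4562 CPM, whose estimated counts are fractional and so uncertain. Gata3 was also higher in dsNat10, while Pou5f1, Nanog, Cdx2, Krt8 and Krt18 were lower, so the sum does not describe the single genes. Sox2 was not analysed here. Oocyte-inherited markers summed to 32.5 CPM against 5.54 CPM over 3 of 5 genes. The 2 cumulus cell genes measured summed to 29.1 against 34.0 CPM, the 3 blood or endothelial genes to 92.2 against 73.0 CPM, and the 1 fibroblast gene, Col1a1, to 0 against 0.312 CPM. Among the blood or endothelial genes, only Pecam1 was higher in dsNat10, at 65.8 against 35.9 CPM. Cd68 had 23.6 against 30.5 CPM, and Hba-a1, with fractional counts, 2.87 against 6.65 CPM. In dsNat10, 20.7% of all genes were at 0 reads, and in dsGFP 3.57%.

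The stretches of promoter below are shown for the 3 members whose difference was 2-fold or more, because the boxes they hold are those that proteins of this family recognise. Each lies before the first annotated transcript start, is written 5′ to 3′ on the strand of the gene, and comes from RefSeq windows on GRCm38.p6. The Klf3 stretch lies at chr5:64803271-64803387 on the plus strand, that of Klf17 at chr4:117765667-117765916 and that of Klf4 at chr4:55532476-55532725, both on the minus strand. Capitals mark every CACCC and every GGGCGG (GC box) on either strand, so that GGGTG and CCGCCC are also in capitals.
Klf3: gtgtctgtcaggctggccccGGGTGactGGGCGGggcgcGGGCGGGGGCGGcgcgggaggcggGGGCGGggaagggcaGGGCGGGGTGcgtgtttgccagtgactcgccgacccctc
Klf17: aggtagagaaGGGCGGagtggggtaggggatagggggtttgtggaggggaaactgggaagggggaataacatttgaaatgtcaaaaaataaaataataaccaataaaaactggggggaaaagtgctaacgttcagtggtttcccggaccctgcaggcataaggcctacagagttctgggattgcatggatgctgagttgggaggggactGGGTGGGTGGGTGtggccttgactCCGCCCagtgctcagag
Klf4: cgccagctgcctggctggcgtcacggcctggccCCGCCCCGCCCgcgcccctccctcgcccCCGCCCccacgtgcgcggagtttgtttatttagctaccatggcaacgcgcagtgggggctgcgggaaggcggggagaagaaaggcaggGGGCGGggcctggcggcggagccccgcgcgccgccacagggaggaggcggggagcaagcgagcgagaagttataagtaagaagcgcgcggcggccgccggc

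Counted over whole windows of 300 bases, 50 of them past the start site, the Klf3 window held 5 CACCC matches and 6 GC boxes, with 1 pair of the different motifs sharing bases. As many CACCC matches were found in 1.02% of all 32851 RefSeq windows of this length, and as many GC boxes in 1.35%. The Klf17 window held 3 CACCC matches, of which neighbours share a base, and 2 GC boxes, numbers reached by 9.35% and 19.5% of windows. The Klf4 window held 0 CACCC matches and 4 GC boxes, as many as 5.49% of windows. At least 1 CACCC match stood in 57.5% of all windows and at least 1 GC box in 35.7%. The windows of Klf3 and Klf4 had 76.7% and 74.3% G and C, that of Klf17 50.7%, and the median window 52.7%. Of the other members, Klf2 had 1 CACCC match and 2 GC boxes, Klf6 had 0 and 1, and the Klf5 promoter was not analysed here. These matches are letters in a window and say nothing of binding in the embryo.

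Klf17 and Klf3 were higher and Klf4 lower in the dsNat10 library, by 2.61-fold to 3.49-fold. Klf5, the most abundant member, was higher and Klf6 lower by a little less than 2-fold, and Klf2 differed least. A gene was called higher or lower when its mean level was at least 5 CPM, its log2 ratio of CPM plus 1 was 1 or more in either direction, and equality lay outside the exact 95% counting interval of the ratio. All 6 members passed the level filter, 2 were called higher and 1 lower, and 3 were within the limit. Over the 8738 genes that passed the filter, 15.2% were called higher and 15.3% lower, or 30.5% in either direction. The median log2 ratio was 0.59 over the 6 members, 4 of them above 0, and 0.01 over all 8738 genes. Folds below are plain CPM ratios, and their intervals cover only counting error. Reads amplified by PCR and not tagged by molecule are counted as if independent, which makes these intervals too narrow for molecules.

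**Figure D1:**
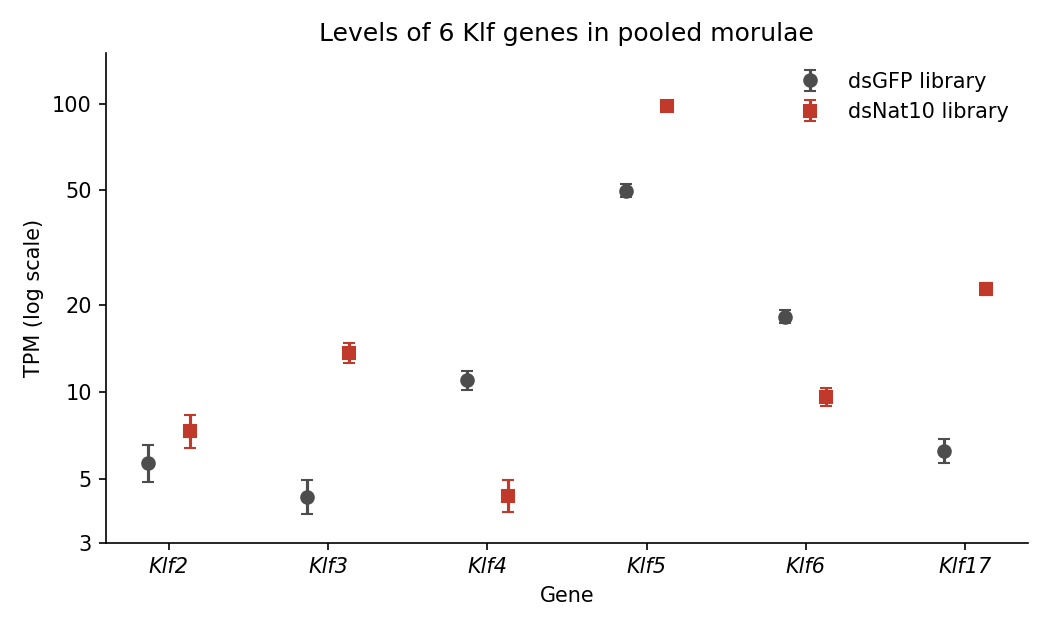
Level of each of the 6 Klf genes in TPM (log axis), with a grey circle for the dsGFP library and a red square for the dsNat10 library. Bars are exact 95% intervals of the read count, which cover counting error only. Klf5 stands highest in both libraries, at 49.9 and 98.6 TPM, and Klf4 goes from 11.0 TPM in dsGFP to 4.37 TPM in dsNat10.

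Klf5 (Entrez gene 12224, GRCm38 chromosome 14, 99298691 to 99313412) is an activator expressed in both the outer and the inner cells of the embryo. It had 2944 reads in dsNat10 and 1568 in dsGFP, or 98.6 against 49.9 TPM and 67.4 against 34.9 FPKM. The dsNat10 library was 1.90-fold higher (1.78 to 2.02), a log2 ratio of 0.91 that is short of the limit. Klf5 accounted for 63.1% of the summed TPM of the 6 members in dsNat10 and 52.3% in dsGFP, the largest share in each. The size of these shares depends on the gene lengths used, as given below. Without Klf5, the other 5 members summed to 57.7 TPM against 45.5.

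Klf2 and Klf4 share the maintenance of naive pluripotency with Klf5, and Klf4 is also one of the factors used to reprogram somatic cells. Klf4 (Entrez gene 16600, chromosome 4, 55527137 to 55532475) had 242 reads against 639, or 4.37 against 11.0 TPM and 2.99 against 7.68 FPKM. It was 2.61-fold lower in dsNat10 (2.25 to 3.04), with a log2 ratio of -1.29. Klf2 (Entrez gene 16598, chromosome 8, 72319062 to 72321654), better known from endothelium and T cells, had 230 reads against 188, or 7.29 against 5.66 TPM and 4.98 against 3.96 FPKM. Its level was 1.24-fold higher in dsNat10 (1.01 to 1.51), with an interval that nearly reaches equality. The members of this trio of pluripotency genes thus stood on different sides of 0, with Klf2 and Klf5 higher and Klf4 lower in dsNat10.

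Klf17 (Entrez gene 75753, chromosome 4, 117756659 to 117765666), first described in germ cells, showed the largest difference of the 6. It had 1502 reads in dsNat10 and 435 in dsGFP, or 22.8 against 6.26 TPM and 15.6 against 4.38 FPKM. The level was 3.49-fold higher in dsNat10 (3.13 to 3.89), with a log2 ratio of 1.74. Among the oocyte-inherited markers, Zp3, a protein of the egg coat, had 642 reads against 106, and H1f8, the linker histone of the oocyte, 286 against 0. Gdf9, a growth factor of the oocyte, went the other way with 1 read against 54, and Zp2 and Bmp15 were not analysed here. The part of egg-derived RNA in the level of Klf17 was not tested.

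Klf3 (Entrez gene 16599, chromosome 5, 64803521 to 64832901) is mainly a repressor, which recruits the corepressors Ctbp1 and Ctbp2. It had 619 reads in dsNat10 and 216 in dsGFP, or 13.6 against 4.32 TPM and 9.32 against 3.02 FPKM. The level was 2.90-fold higher in dsNat10 (2.48 to 3.40), with a log2 ratio of 1.42. Klf3 is the 1 member with an exon that overlaps an annotated gene on the opposite strand, the non-coding Gm20033, and the counting is not stated to use strand, so reads of both cannot be told apart. Klf6 (Entrez gene 23849, chromosome 13, 5861489 to 5870393), an activator present in many tissues, had 750 reads against 1498, or 9.61 against 18.2 TPM and 6.57 against 12.8 FPKM. It was 1.98-fold lower in dsNat10 (1.81 to 2.16), and its log2 ratio of -0.96 was just short of the limit. No member had fractional estimated counts. Genes that have them are given below as uncertain.

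Other genes of like abundance often had ratios as large as those of the members. Of 1100 genes with a mean CPM within 1.25-fold of that of Klf17, 10.2% had a log2 ratio at least as large in size, and 44 genes one as high. For Klf5, 19.0% of 868 such genes had a ratio as large in size and 9.68% one as high. The shares as large in size were 26.6% of 1077 genes for Klf6, 32.5% of 1027 for Klf3, 36.9% of 1038 for Klf4 and 90.4% of 864 for Klf2. Calls are more common at low levels, and 46.1% of the genes near Klf3, 46.2% of those near Klf4, 29.5% of those near Klf17 and 13.6% of those near Klf5 were called in either direction. Klf17 thus stood nearest the edge of its neighbours, while Klf3 and Klf4 lay where about as many genes were called as were not.

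**Figure D2:**
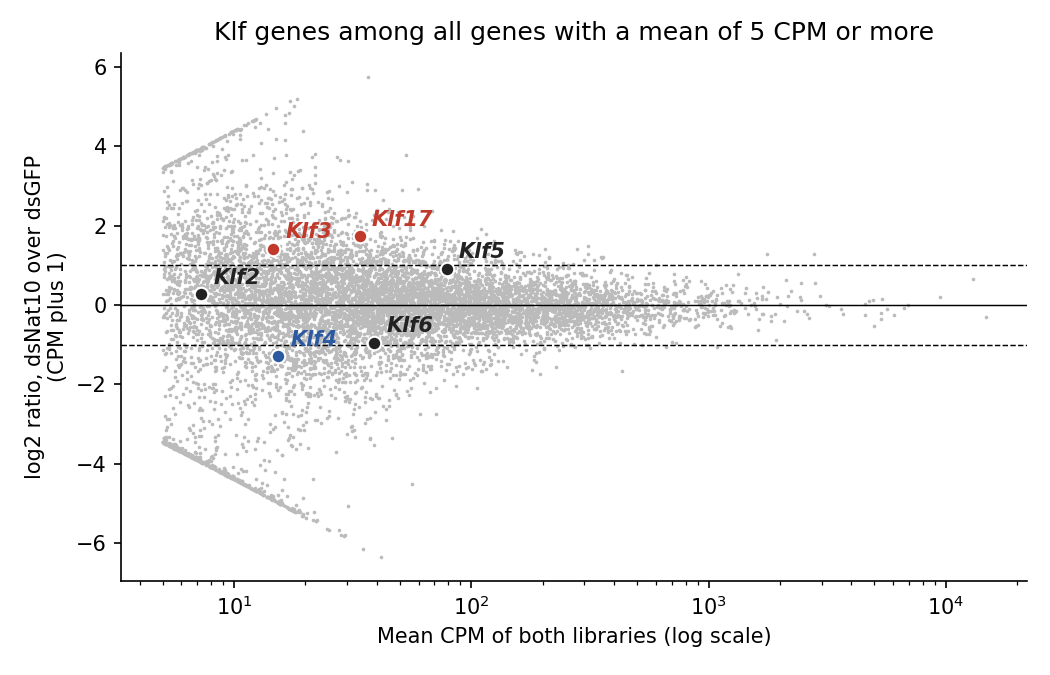
Log2 ratio of dsNat10 over dsGFP (CPM plus 1) against mean CPM (log axis) for the 8738 genes with a mean of at least 5 CPM, as grey points. Coloured points are the Klf genes (red called higher, blue called lower, black within the limit), and dashed lines mark a log2 ratio of 1 in size. Klf5 and Klf6 lie just inside the lines at 0.91 and -0.96, and the cloud narrows towards abundant genes.

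The order of the 6 genes by level per length differed between the libraries. In dsGFP it ran, by TPM, from Klf5 to Klf6, Klf4, Klf17, Klf2 and Klf3, and in dsNat10 from Klf5 to Klf17, Klf3, Klf6, Klf2 and Klf4. In dsGFP, Klf17 and Klf2 did not differ beyond counting error, with a Klf2 to Klf17 ratio of 0.904 (0.758 to 1.08). The counting intervals of all other neighbours in either order excluded equality. Of the 15 pairs of members, 6 had the opposite order in the other library, each with intervals that excluded equality in both. Such ratios within a library do not depend on how the libraries were scaled. Klf4 was 1.75 times the level of Klf17 in dsGFP (1.55 to 1.99) and 0.192 times in dsNat10 (0.167 to 0.220). The Klf6 to Klf17 ratio went from 2.91 (2.62 to 3.25) to 0.422 (0.386 to 0.461). Klf3 and Klf4 exchanged places as well, with a Klf3 to Klf4 ratio of 0.393 in dsGFP and 3.12 in dsNat10. How often pairs of other genes at like levels reverse their order was not tested.

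The levels per length rest on the gene lengths that the authors used. From counts and FPKM, and with the summed counts as library total, these lengths came to 1543 bases for Klf5 and 3411 for Klf17 in dsNat10. The longest protein-coding transcripts in GENCODE M21 measure 3352 and 2400 bases. The shortest of Klf5 there measures 2852 bases, and Klf17 has only 1, so neither implied length matches a protein-coding transcript listed there. Divided by the GENCODE lengths instead, an option chosen after the values were seen, Klf5 held 43.8% of the summed level in dsNat10 and 34.5% in dsGFP, and Klf17 31.2% and 13.3%. Klf5 remained the highest in both libraries by this measure, and Klf3 went from the third to the fifth place in dsNat10, so that 4 of the 6 reversed pairs kept their reversal. The implied length of Klf3 was 2347 bases in dsNat10 and 2455 in dsGFP, and those of the other members were nearly equal in both.

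With 2 libraries, many genes share the pattern of any 1 member. By distance in log2 CPM plus 1 of both libraries, leaving out predicted genes, pseudogenes and genes with fractional counts, the nearest to Klf17 were Erlec1 (1507 reads against 422) and Usp42 (1550 against 438), at distances of 0.04 and 0.05. Nearest to Klf4 were Spag5 (240 against 637) and Id2 (229 against 639), and nearest to Klf3 were Kif15 (640 against 220) and Hsdl1 (649 against 218). For Klf5 they were Smg1 (2940 against 1603) and Macroh2a1 (2999 against 1603), for Klf6 Kpna6 (744 against 1488) and Usp2 (751 against 1477), and for Klf2 Zfx (232 against 188) and Brsk2 (230 against 192). Within a distance of 0.1 lay 6 genes for Klf17 and Klf4 and 8 to 11 for the other members.

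The rest of the family, with the related Sp factors that bind the same boxes, had 1 call among the genes that passed the level filter. Of 20 such genes, 15 were in the table, 9 passed the level filter, and of these 0 were called higher and 1 lower, where 30.5% of all genes were called. Their median log2 ratio was -0.48, with 3 above and 6 below 0. The gene called lower was Klf8, a repressor, with 76 reads against 268 (3.49-fold, 2.70 to 4.56), near the level filter. At 0.63 against 2.15 TPM its mean was below the same filter applied to TPM or FPKM, so it was not called on those scales. Klf13, the most abundant, had 5153 reads against 4692, and Klf10, a gene induced by TGF-beta, had 2855 against 4352. Klf11, a close relative of Klf10, had 1549 against 880 and was 1.78-fold higher in dsNat10 (1.64 to 1.93). Klf16, Klf9, Sp2 and Sp3 had log2 ratios between -0.72 and -0.47, and Sp1, which binds GC boxes in most cells, had 1383 reads against 949.

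The remaining 6 genes were below the filter and at 0 in 1 library. Klf1, Klf7, Klf12, Klf14 and Klf15 had between 10 and 92 reads in dsGFP and 0 in dsNat10, and Sp8 had 48 in dsNat10 and 0 in dsGFP. Set against a floor of 3 reads in the library at 0, Klf7 was 30.35-fold and Klf15 26.39-fold lower in dsNat10. Klf1, the erythroid founder of the family, was 24.41-fold lower against the same floor. The counting intervals reach down to 24.19-fold for Klf7, 20.97-fold for Klf15 and 19.36-fold for Klf1. With 20.7% of all genes at 0 in dsNat10, such zeros were common, and these folds and intervals do not cover that. Klf12 has fractional counts and is uncertain.

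**Figure D3:**
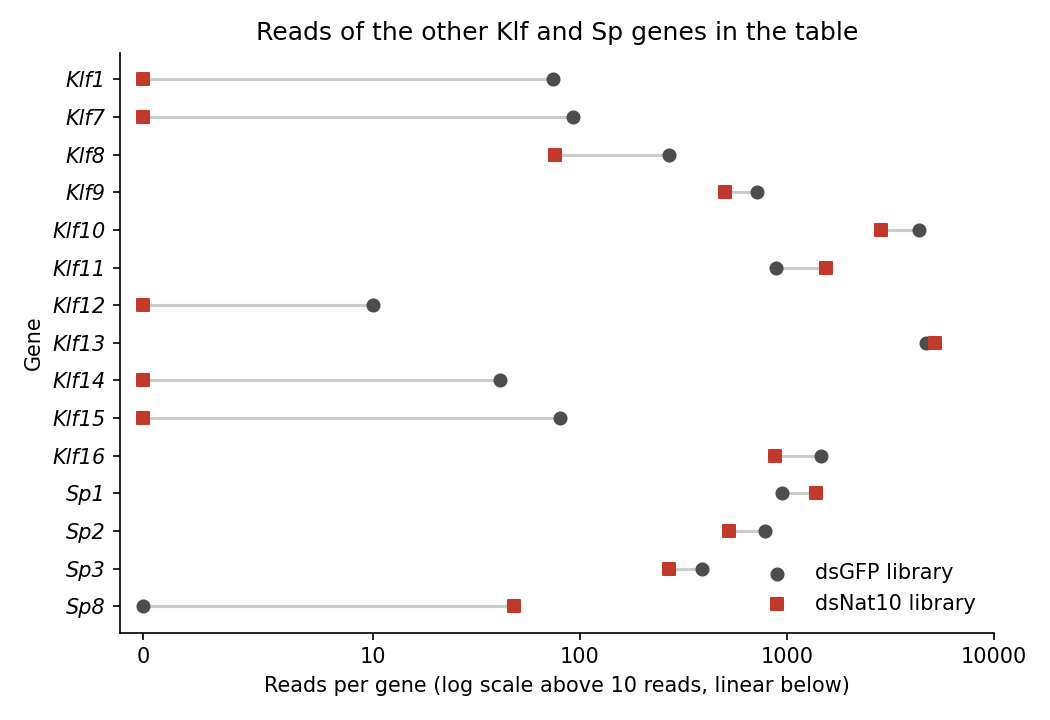
Reads of the 15 other Klf and Sp genes in the table, with grey circles for dsGFP and red squares for dsNat10, on an axis that is linear up to 10 reads and logarithmic above. The 9 genes with a mean of at least 5 CPM lie mostly to the right, with Klf13 at 5153 and 4692 reads. Among them, Klf8 at 76 reads in dsNat10 lies left of Klf7, below the filter, at 92 in dsGFP. Of the 6 others, 5 are at 0 in dsNat10.

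Cofactors were examined because the same Krüppel-like factor can activate or repress according to its partners. Of 16 corepressors and coactivators, 14 passed the filter, with 2 called higher, 2 lower and a median log2 ratio of 0.01. That share was near the 30.5% called over all genes. Ctbp2, a partner of Klf3, Klf8 and Klf12, had 1522 reads in dsNat10 against 696 and was 2.21-fold higher (2.02 to 2.42), while its paralogue Ctbp1 had 244 against 336. Sap30, a subunit of the Sin3 complex, was 11.3-fold higher (7.48 to 17.7), with 279 reads against 25, and Sin3a itself had 1289 against 1329. With a mean of 5.32 CPM, Sap30 was near the level filter. It passed only through dsNat10, at 9.77 against 0.866 CPM. Hdac3, the deacetylase of the Ncor complexes, was 2.13-fold lower (1.94 to 2.33), and Ncor1, with fractional counts and uncertain, had 75 reads against 481. Rbbp7, the most abundant of the list, also with fractional counts, had 39917 against 38975. Of 9 ligases and deubiquitinases known to act on these proteins, 7 passed and 1 was called higher, beside 15.2% called higher over all genes, with a median of -0.08. That gene was Wwp1, a ligase that targets Klf2 and Klf5, with 608 reads against 278 (2.21-fold, 1.91 to 2.56), and the most abundant was Btrc, with 30978 against 26500.

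Signalling genes upstream of the family ranged from a log2 ratio of -3.95 to 4.60. LIF signalling through Stat3 induces Klf4, the kinases Map2k5 and Mapk7 induce Klf2, and FGF signalling through ERK opposes naive pluripotency. Of 19 genes, 15 passed, with 3 called higher, 2 lower and a median log2 ratio of 0.68. The share called was near the 30.5% of all genes. That median was 0.43 in TPM, 0.15 in FPKM and 0.13 at a filter of 20 CPM. Mapk7 had 0 reads in dsNat10 against 417. It was 137.6-fold lower against the floor of 3 reads, with a counting interval that reaches down to 111-fold. Map2k5, below the filter, had 0 against 80. Lifr, the LIF receptor, had 930 against 11, but its counts are fractional and uncertain. Its partner Il6st, below the filter, had 0 against 160, and Stat3, which carries the LIF signal, 1305 against 1437. Mapk3, an ERK kinase, had 308 reads against 0. It was 103.7-fold higher against the same floor, with a counting interval that reaches down to 83.85-fold. Zeros stood at 20.7% of all genes in dsNat10 and 3.57% in dsGFP, which these bounds do not cover. Tyk2, a kinase of cytokine receptors, was 2.88-fold lower (2.54 to 3.28), and Map2k2, the most abundant of the list, was 1.60-fold higher (1.55 to 1.66). Map3k2 had 333 reads against 3, a ratio of 112 with a counting interval of 38.0 to 547. Mapk7, Lifr, Mapk3 and Map3k2 passed the filter through 1 library alone, with 0 to 0.381 CPM in the other. Their calls thus follow from passing it. Mapk7, Lifr and Map3k2 were below the same filter applied to TPM.

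Among partners and lineage genes of the morula, 5 genes were called lower and 1 higher, Nanog being in both lists. Over all genes, 15.3% were called lower and 15.2% higher. Among 11 passing of 17 pluripotency transcription factors, 0 were called higher and 2 lower, beside 30.5% of all genes called, with a median of -0.28 that was 0.35 at a filter of 50 CPM. Myc, a growth factor-induced regulator, was 3.77-fold lower (3.34 to 4.26), with 344 reads against 1310. Nanog, with 5928 reads against 18966, has fractional counts and is uncertain. Pou5f1, the core factor with which Klf4 and Klf5 share target genes, had 4468 against 7489, Esrrb, a nuclear receptor of naive cells, 490 against 922, and the most abundant, Tfcp2l1, 17182 against 23833. Of 11 early lineage genes studied downstream of Klf5, 10 passed, with 1 called higher, 4 lower and a median of -0.57, beside 30.5% of all genes called. Cdx2, Tead4, Krt8 and Nanog were the genes called lower. Eomes, the gene called higher, had 374 reads against 4, or 5.47 against 0.06 TPM, and was below the filter applied to TPM or FPKM. Gata3, the most abundant, had 39991 reads against 30412. Klf5 itself was 1.90-fold higher in the same library. Fgf4, a gene that Klf5 is reported to hold down, had 519 reads against 385, and Gata6, a factor of the primitive endoderm, 1529 against 2065.

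**Figure D4:**
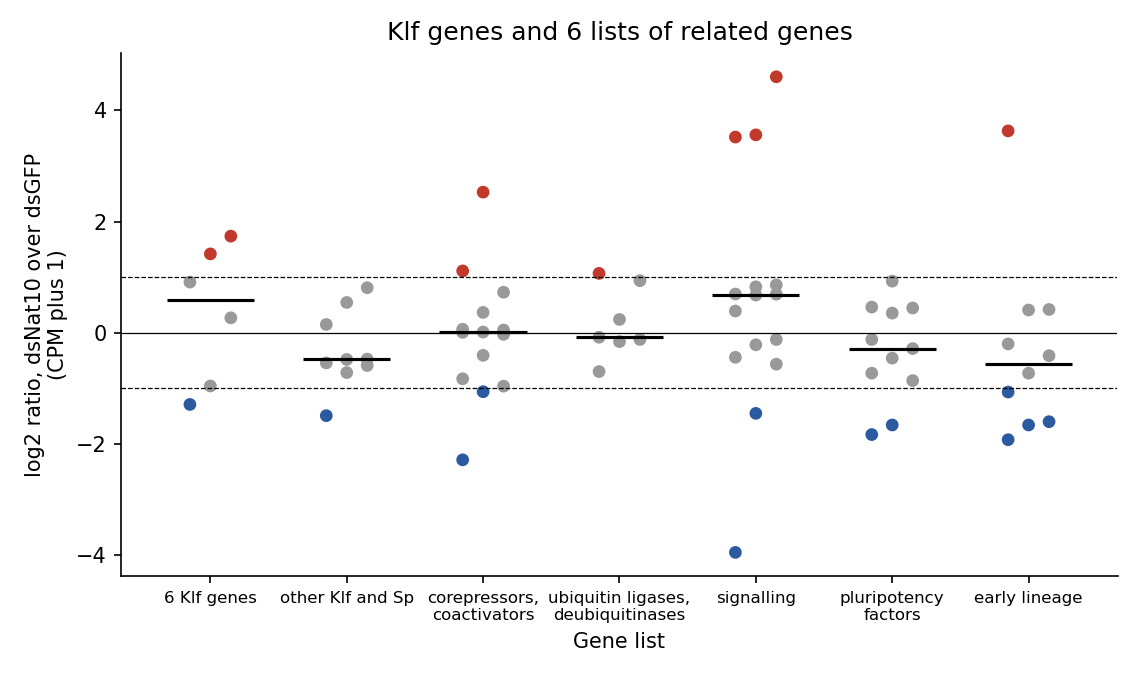
Log2 ratios of dsNat10 over dsGFP (CPM plus 1) of the 6 Klf genes and of the members of 6 related lists with a mean of at least 5 CPM. Each point is a gene (red called higher, blue called lower, grey within the limit), black bars are medians, and dashed lines mark a log2 ratio of 1 in size. The median of the Klf genes is 0.59, that of the other Klf and Sp genes -0.48, and the signalling genes range from -3.95 to 4.60.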

How the data were processed

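Polyadenylated RNA from 1 dsNat10 and 1 dsGFP pool of morulae was sequenced with paired ends. The submitters' processing notes name Trim Galore for trimming, HISAT for mapping to GRCm38 and HTSeq for counting, with versions and annotation not given in the sources used here. Estimated counts were deposited without normalization, and 23.2% of genes have a fractional value, which HTSeq does not give by default. The authors also deposited FPKM, scaled by gene length and library total, and TPM, which sums to 1000000 in each library. The table had 0 unused per-sample columns.

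Estimated counts were rounded and scaled by TMM (edgeR 4.0.16, R 4.3.3), which moved log2 ratios by -0.03 against plain totals. Intervals of ratios are exact (Clopper-Pearson, scipy 1.17.1) at 95%, and the floor for a library at 0 is 3 reads, or 0.105 CPM in dsNat10 and 0.104 CPM in dsGFP. Figures were drawn with matplotlib 3.10.9. Alternatives were plain totals, DESeq2 1.42.0 size factors, TPM, FPKM, pseudocounts of 0.5 and 5 CPM, and filters of 0, 20 and 50 CPM. For TPM and FPKM, the pseudocount of 1 and the filter of 5 were in those units. The counting interval was not applied there, so calls in TPM and FPKM rest on level and ratio alone.

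Entrez identifiers of 12800 genes matched the RefSeq table of GRCm38.p6, the source of coordinates. The promoter table matched 5 of 6 members. The named genes are the 6 members, Nat10, Nop2, up to 4 called genes and the most abundant gene of each of 6 lists, and the 2 genes nearest to each member. Further genes of these lists were named after their values were seen. A gene that counts in the list totals is not reported here. The members and lists were chosen with earlier results of these data known.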

Additional observations from a re-analysis of the deposited data

How the results depend on the processing

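The signs of the log2 ratios of all 6 members were the same under every scaling, unit and pseudocount tried, and of 36 such values 3 left the counting interval, those of Klf3 (1.09), Klf4 (-1.01) and Klf17 (1.52) at a pseudocount of 5 CPM. Klf3 and Klf17 were called higher and Klf4 lower under plain totals, DESeq2 size factors, TPM, FPKM, both pseudocounts and no filter. Klf2 was below the filter in FPKM. A mean filter of 20 CPM left 3 members with 1 call (Klf17), and a filter of 50 CPM left Klf5 with 0 calls, by the construction of the filter.

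Calls in either direction over all genes, 2664 in the main analysis, were 1405 in FPKM, 4933 with no filter (1681 higher and 3252 lower), 1026 at 20 CPM and 331 at 50 CPM. The other Klf and Sp genes had 0 calls in TPM, in FPKM, at a pseudocount of 5 CPM and at 20 and 50 CPM, and 6 with no filter. Corepressors and coactivators had 2 calls in TPM, 2 at 20 CPM and 0 at 50 CPM. Ubiquitin ligases and deubiquitinases had 0 at a pseudocount of 5 CPM and at 20 and 50 CPM. Signalling genes had 2 in TPM, 1 in FPKM, 9 with no filter, 1 at 20 CPM and 0 at 50 CPM. Pluripotency factors had 5 with no filter and 1 at 50 CPM, and early lineage genes 3 at 20 and at 50 CPM. Filters change how many genes are tested, and the cause of the other differences was not tested. Leaving out a library was not possible with 1 per group. No paired analysis was possible because each group has 1 library.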
